A study of Mus musculus with 16 samples.

Results

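The semaphorins, netrins, netrin-Gs and Slits, with their plexin, neuropilin, Dcc, Unc5 and Robo receptors, were read from RNA-seq of cultured mouse cortical neurons. They were taken by gene symbol from the tables of FPKM (fragments per kilobase of transcript, relative to the fragments of the library) and came to 49 of the 22440 genes listed. Of these, 29 code for ligands and 20 for receptors.

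All 4 RNA libraries came from dissociated cortex of Swiss-Webster embryos at embryonic day 16, cultured as primary neurons. They were a control titled CTRL, a culture with 5 µM etoposide whose length of exposure is not given, a second control titled CTRL2 and a culture with NMDA. The labels give the NMDA exposure, for most experiments, as 50 µM for 10 min with 10 min of recovery. Neither control's title names a treatment. Etoposide holds type II topoisomerases on cut DNA, and NMDA opens a class of glutamate receptor. CTRL is called the etoposide control below and CTRL2 the NMDA control, and each treated library was set against its own. With 1 library per group no test was possible and no difference has a replicate check. The labels do not say how many embryos or plates a library holds, and a cortical culture holds glia beside neurons.

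Guidance genes steer growing axons and migrating neurons. Class 3 semaphorins are secreted and bind neuropilins, which signal through class A plexins, whereas most membrane semaphorins bind plexins directly. Netrin-1 attracts axons through Dcc and repels them through Unc5 receptors, Slits repel through Robos, and netrin-Gs are membrane-anchored adhesion proteins that bind partners of the Lrrc4 family. In the developing cortex these systems shape the callosal and corticofugal tracts and the placing of migrating neurons.

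The stretches before 4 start sites are shown because these genes mark the ends of the etoposide comparison. For each side they are the member with the lowest and the member with the highest log2 fold, with Dcc and Sema6a left aside. Each is the 250 bases before the RefSeq start site, 5′ to 3′, located by an exact match in mm9 and lying on the plus strand. They are at chr1:196445773-196446022 (Plxna2), chrX:71574155-71574404 (Plxna3), chr11:34934708-34934957 (Slit3) and chr19:45063584-45063833 (Sema4g). Capitals mark CG dinucleotides.
Plxna2: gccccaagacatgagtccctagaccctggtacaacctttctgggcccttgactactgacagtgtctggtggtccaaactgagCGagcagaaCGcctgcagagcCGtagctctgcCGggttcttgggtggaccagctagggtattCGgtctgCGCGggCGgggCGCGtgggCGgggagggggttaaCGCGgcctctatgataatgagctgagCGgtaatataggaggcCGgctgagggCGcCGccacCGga
Plxna3: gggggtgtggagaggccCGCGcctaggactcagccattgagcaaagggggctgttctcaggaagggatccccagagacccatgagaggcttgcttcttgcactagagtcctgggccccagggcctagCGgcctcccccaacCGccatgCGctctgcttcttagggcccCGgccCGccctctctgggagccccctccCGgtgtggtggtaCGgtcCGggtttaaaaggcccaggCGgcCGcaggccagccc
Slit3: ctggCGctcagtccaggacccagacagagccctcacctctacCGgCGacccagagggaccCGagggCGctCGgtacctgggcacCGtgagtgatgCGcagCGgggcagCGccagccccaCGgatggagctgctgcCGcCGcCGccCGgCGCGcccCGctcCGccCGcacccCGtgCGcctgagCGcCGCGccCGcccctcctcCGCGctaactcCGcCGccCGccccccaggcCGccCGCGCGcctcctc
Sema4g: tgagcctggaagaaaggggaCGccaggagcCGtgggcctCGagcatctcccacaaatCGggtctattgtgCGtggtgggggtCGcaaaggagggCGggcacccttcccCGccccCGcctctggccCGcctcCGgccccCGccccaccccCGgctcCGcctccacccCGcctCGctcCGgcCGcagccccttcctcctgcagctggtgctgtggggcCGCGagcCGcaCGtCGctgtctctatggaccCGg

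These stretches held 18, 12, 35 and 24 CG dinucleotides in that order, so the ligand with the largest difference and the ligand level with its control both held many. RefSeq start regions (table build GRCm38.p6) matched 40 of the 49 members by symbol and gave 53 stretches, with a median of 13 CG dinucleotides, against 6 over all 32851 stretches. Motifs were searched on both strands. The cyclic AMP response element TGACGTCA was in 0 of the 53 and in 1.55% of all. AP-1 letters (TGANTCA) were in 3 (5.66%, against 6.75% of all), the E-box CACGTG in 3 (5.66%, against 6.02%) and the TATA box TATAAA in 1 (1.89%, against 12.4%). None of the 4 printed stretches held any of these.

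The fragment totals, read from the lowest FPKM values, were near 14.2 M, 11.9 M, 19.2 M and 18.2 M for the etoposide control, etoposide, NMDA control and NMDA libraries. Ratios of FPKM carry exact 95% intervals from the resulting approximate fragment numbers, which cover counting error only. The median FPKM over the 9533 genes at 1 FPKM or more in all libraries was 5.65, 4.18, 17.3 and 17.7 in the same order, so levels were compared within a pair, or after scaling to these medians. The 7 neuron markers in the tables summed to 499, 315, 1330 and 1420 FPKM with none at 0. The 8 astrocyte markers summed to 103, 54.3, 945 and 912 FPKM, so glial RNA was present.

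With etoposide, guidance receptors were lower than in the control, and by more than most genes. Folds are log2((treated + 1)/(control + 1)) for genes at 1 FPKM or more in either library of the pair. A gene that passes this filter through the control alone is below 0 by the filter. Of 20 receptors 16 were compared and all 16 were below 0, as were 76.7% of the 10681 genes compared. Unc5c and Unc5d, among the 16, passed through the control alone, so their sign was fixed. At least 2-fold lower on this scale were 10 of the 16 (62.5%), beside 7.36% of all genes, and 0 were at least 2-fold higher, beside 0.477%. The receptor median was -1.16 and that of all genes -0.32, which places receptors -0.84 from the whole. After median scaling, which moved the all-gene median to 0.03, 7 of 17 receptors were still at least 2-fold lower, beside 2.64% of all genes. Against the other control after the same scaling it was 3 of 17 receptors (17.6%) and 4 of 25 ligands (16%), beside 10.0% of all genes, so the counts came nearer to the background there. The authors' deposited table of differing genes listed 11 receptors, all as lower, beside 6.28% of the genes compared, and 0 as higher, beside 0.0936%.

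Plexins are the signalling receptors of semaphorins, and their class A members divided in the etoposide pair. Coordinates are those of the files' build, mm9. In the order etoposide control, etoposide, NMDA control, NMDA, Plxna2 (chromosome 1, 196446023 to 196643062) was at 9.7, 2.43, 17 and 19.6 FPKM. It was 3.99-fold lower with etoposide (interval 3.53 to 4.51), where the median gene was 1.34-fold lower. Plxna4 (chromosome 6, 32094559 to 32538192) was at 11, 2.99, 14 and 16.1 FPKM in the same order and 3.67-fold lower with etoposide (interval 3.29 to 4.1). For both genes the etoposide library lay below its control and the NMDA library above its own. Plxna1 (chromosome 6, 89266308 to 89312607), the most abundant plexin, was at 14.7, 5.77, 42 and 48.9 FPKM and 2.55-fold lower with etoposide (interval 2.33 to 2.8). Plxna3 (chromosome X, 71574405 to 71590028) was at 3.2, 2.88, 15.8 and 13.8 FPKM and 1.11-fold lower with etoposide (interval 0.934 to 1.32), so it was near level with its control, and it lay above 0 after median scaling (0.25). With the etoposide library set against the NMDA control after scaling, Plxna3 (-0.37) was lower than Plxna4 (-0.16).

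Outside class A, the receptor of Sema7a stood lowest. Plxnc1 (chromosome 10, 94253612 to 94407212) was at 10.4, 2.71, 26.6 and 30.6 FPKM and 3.83-fold lower with etoposide (interval 3.32 to 4.45). The class B plexins, receptors of class 4 semaphorins, differed less in the etoposide pair. Plxnb1 was at 2.62, 1.72, 15.5 and 14.1 FPKM and 1.52-fold lower with etoposide (interval 1.26 to 1.84). Plxnb2 was at 5.73, 3.41, 32.1 and 29 FPKM and 1.68-fold lower with etoposide (interval 1.45 to 1.96). Plxnd1, which binds Sema3e without a neuropilin, was at 5.28, 3, 22.4 and 24.2 FPKM and 1.76-fold lower with etoposide (interval 1.51 to 2.06). These 3 were closer to the median gene in the etoposide pair, and Plxnb3 did not reach 1 FPKM in any library. Against the NMDA control after median scaling, Plxnb2 was at -1.11, Plxnb1 at -0.98 and Plxnd1 at -0.78, beside a median of -0.01 over all genes. Class A ran from -0.78 (Plxna1) to -0.16 (Plxna4) there, so the order of the classes turned with the control.

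Both neuropilins, the binding subunits for class 3 semaphorins, were lower with etoposide. Nrp1 (chromosome 8, 130882973 to 131029375) was at 6.83, 1.58, 12.1 and 12.7 FPKM and 4.32-fold lower with etoposide (interval 3.51 to 5.32). Nrp2 (chromosome 1, 62749891 to 62865266) was at 6, 2.02, 12 and 13.3 FPKM and 2.97-fold lower with etoposide (interval 2.48 to 3.58). Their summed level was 12.8 FPKM in the control and 3.6 with etoposide, a ratio of 0.281, the lowest among the 4 receptor families. The plexin sum had a ratio of 0.398, the netrin receptors 0.328 and the Robos 0.576.

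Among the netrin receptors, the repulsive Unc5c and Unc5d were lower in ratio than the attractive Dcc. Unc5c (chromosome 3, 141128528 to 141497886) was at 3.02, 0.664, 5.75 and 6.63 FPKM and 4.56-fold lower with etoposide (interval 3.06 to 6.85). Unc5d (chromosome 8, 29757189 to 30330108) was at 3.99, 0.926, 9.32 and 10.2 FPKM and 4.31-fold lower with etoposide (interval 3.41 to 5.51). Both were under 1 FPKM with etoposide only. Unc5a was at 5.54, 2.07, 16.8 and 18.5 FPKM and 2.68-fold lower with etoposide (interval 2.12 to 3.39). Dcc (chromosome 18, 71413286 to 72510723), the longest member at 1097 kb, was at 3.1, 1.39, 4.69 and 5.38 FPKM and 2.23-fold lower with etoposide (interval 1.73 to 2.89). Against the NMDA control, after median scaling, Dcc was not lower (log2 fold 0.23). The intervals of Dcc and Unc5a overlapped, and those of Dcc and Unc5c did not. Unc5b was at 0.75, 0.333, 1.54 and 1.58 FPKM, under the 1 FPKM needed to be compared in the etoposide pair. Its plain ratio there was near that of Dcc, 2.25-fold lower (interval 1.38 to 3.82).

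The Slit receptors Robo1 and Robo2, which both lie on chromosome 16, parted. Robo1 (chromosome 16, 72663394 to 73046345) was at 5.12, 1.84, 11.7 and 12.8 FPKM and 2.78-fold lower with etoposide (interval 2.34 to 3.33). Robo2 (chromosome 16, 73892551 to 74411157) was at 5.53, 4.22, 18.7 and 20.7 FPKM and 1.31-fold lower with etoposide (interval 1.16 to 1.49). The intervals did not overlap, and Robo2 lay at 0.04 after median scaling, level with its control. Both were near the same FPKM in the etoposide control, while Robo2 was the higher in the NMDA control. Robo3 and Robo4 did not reach 1 FPKM in any library.

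**Figure D1:**
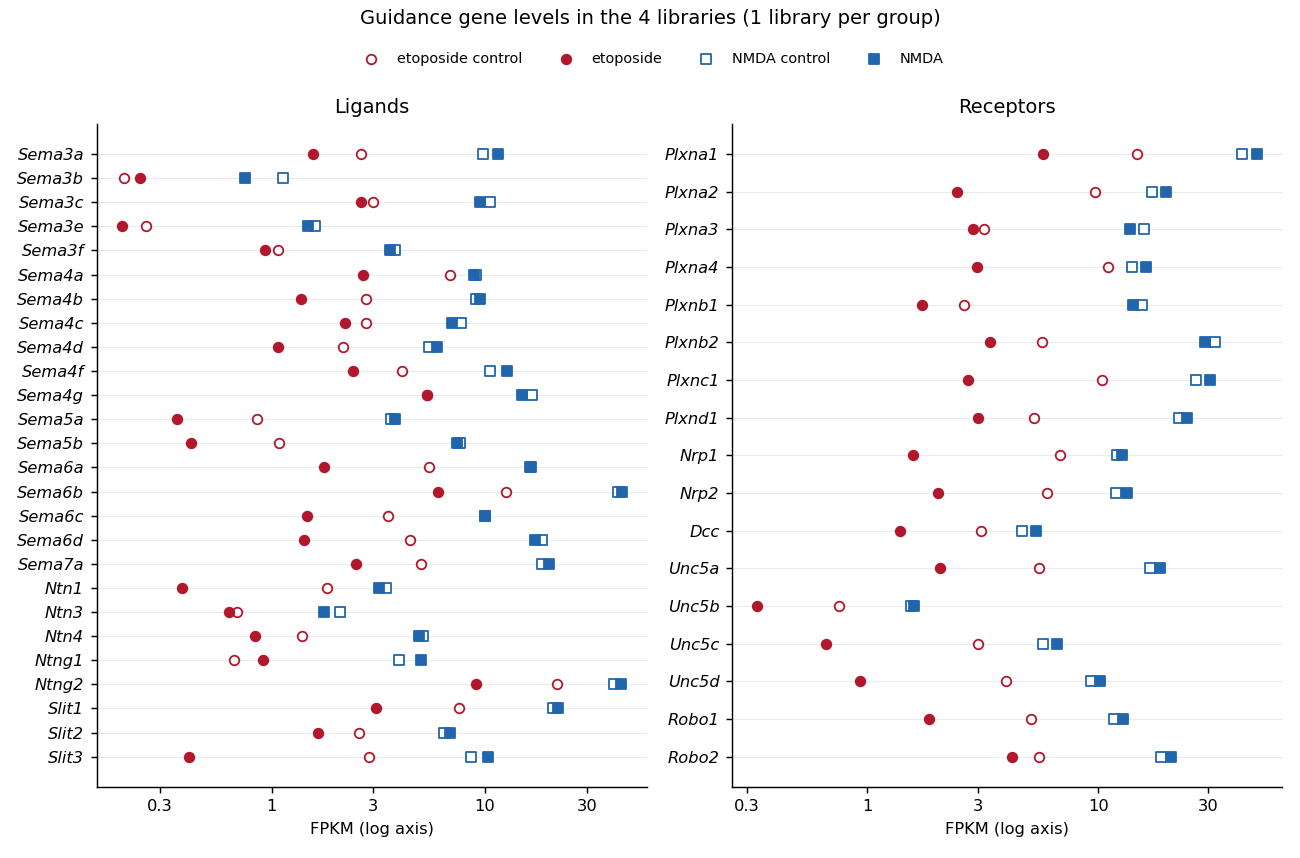
FPKM (log axis) of the 26 ligands and 17 receptors at 1 FPKM or more in any library, with 1 point per library: red circles for the etoposide pair and blue squares for the NMDA pair, open for the control and filled for the treated library. The etoposide library lies below its control for all of these members except Sema3b and Ntng1, both under 1 FPKM in that pair, while the NMDA library and its control nearly coincide.

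Ligands were lower with etoposide as well, by less at the median and with a wide spread. Of 29, 21 were compared, all 21 were below 0 and 7 (33.3%) were at least 2-fold lower, beside 7.36% of all genes. All 21 were at 1 FPKM or more in the control but 16 with etoposide, so the others were below 0 by the filter. Slit3 and Ntn1, among the 7, passed in this way. Ntng1 and Sema3b, higher with etoposide, were under 1 FPKM in both libraries and were not compared. The ligand median of -0.665 was -0.34 from that of all genes. After median scaling, 4 of 24 were at least 2-fold lower, beside 2.64% of all genes, and 18 of 24 were below 0, beside 47.3%. On the plain FPKM scale the sides lay closer: 13 of 21 ligands and 11 of 16 receptors had a ratio of 0.5 or less, beside 15.8% of all genes. Counting intervals lay below 1 for 17 of 21 ligands and 15 of 16 receptors, beside 54.3% of all genes. The authors' deposited table listed 6 ligands, all as lower, beside 6.28% of the genes compared: Ntn1, Sema4a, Sema6a, Sema6d, Slit1 and Slit3.

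Slits, the repellents that act through Robos, were among the lowest ligands. Slit3 (chromosome 11, 34934958 to 35522009) was at 2.87, 0.411, 8.57 and 10.4 FPKM and 6.98-fold lower with etoposide (interval 4.68 to 11.2), from about 212 and 25 fragments. This was the largest ratio among the 37 members compared. Slit1 (chromosome 19, 41674747 to 41818346) was at 7.52, 3.08, 20.9 and 22.1 FPKM and 2.44-fold lower with etoposide (interval 2.06 to 2.9). Slit2 was at 2.56, 1.65, 6.41 and 6.83 FPKM and 1.55-fold lower with etoposide (interval 1.28 to 1.9), closer to the median gene than the others.

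Netrins are secreted ligands of Dcc and the Unc5 receptors. Ntn1 (chromosome 11, 68022866 to 68200328) was at 1.81, 0.38, 3.44 and 3.18 FPKM and 4.75-fold lower with etoposide (interval 3.17 to 7.63), from about 150 and 26 fragments. Its interval overlapped those of Unc5c and Unc5d and lay above that of Dcc. Ntn4, a laminin-binding netrin, was at 1.38, 0.836, 5.12 and 4.9 FPKM and 1.65-fold lower with etoposide (interval 1.09 to 2.54). Ntn3, whose listed locus spans Tbc1d24, was at 0.686, 0.628, 2.08 and 1.76 FPKM and was not compared in the etoposide pair, and Ntn5 was listed at 0 in all 4 libraries.

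Netrin-Gs differed in level. Ntng2 was the most abundant ligand in the etoposide pair, at 21.8, 9.07, 40.2 and 43.2 FPKM, and 2.4-fold lower with etoposide (interval 2.04 to 2.85). Its exons overlap 6530402F18Rik on the same strand. Ntng1 was at 0.668, 0.91, 3.96 and 5.02 FPKM and was under 1 FPKM in the etoposide pair.

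In the etoposide pair, the 3 class 3 semaphorins compared stood apart from the neuropilins, and none of the 3 was 2-fold lower. Against the other control after median scaling, Sema3a (-0.51) was about as low as Nrp2 (-0.45). Nrp1 was at -0.76 there, Sema3c at 0.03 and Sema3f at 0.02. Sema3a, a repellent of cortical axons, was at 2.61, 1.56, 9.82 and 11.5 FPKM and 1.68-fold lower with etoposide (interval 1.33 to 2.14). Sema3c was at 2.98, 2.62, 10.6 and 9.43 FPKM and 1.14-fold lower with etoposide (interval 0.928 to 1.39). Sema3f, a ligand of Nrp2, was at 1.07, 0.935, 3.78 and 3.58 FPKM and 1.14-fold lower with etoposide (interval 0.738 to 1.77). The intervals of Sema3c and Sema3f included 1, and both lay above 0 after median scaling (0.22 and 0.17). The 7 class 3 semaphorins summed to 7.43 FPKM in the control and 5.62 with etoposide, a ratio of 0.756. Sema3b was at 0.203, 0.242, 1.13 and 0.746 FPKM and Sema3e, the ligand of Plxnd1, at 0.258, 0.198, 1.59 and 1.48 FPKM, both too low in the etoposide pair to be compared. Sema3d and Sema3g did not reach 1 FPKM in any library. Sema3d was at 0.293 and 0.0591 FPKM in the etoposide pair, from about 27 and 5 fragments.

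Membrane semaphorins were below 0 in 12 of 12 compared, where the sign of Sema5b was fixed by the filter. On the FPKM + 1 scale 3 were at least 2-fold lower, beside 7.36% of all genes: Sema6a, Sema6d and Sema4a. That scale understates the change of low genes, and the plain FPKM ratios given with each gene pass 2-fold for more of them. Sema6d, a ligand of Plxna1, was at 4.43, 1.41, 18.6 and 17.2 FPKM and 3.14-fold lower with etoposide (interval 2.53 to 3.94). Sema6a, a ligand of Plxna2 and Plxna4, was at 5.46, 1.76, 16.3 and 16.4 FPKM and 3.09-fold lower with etoposide (interval 2.44 to 3.93). Sema4a was at 6.85, 2.69, 9.09 and 8.88 FPKM and 2.54-fold lower with etoposide (interval 2.03 to 3.22), but it lay at a log2 fold of 0.25 against the NMDA control after median scaling.

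The other class 6 members and Sema7a were lower by about the same ratio as each other. Sema6b, the most abundant semaphorin, was at 12.5, 6.03, 42.1 and 44 FPKM and 2.08-fold lower with etoposide (interval 1.8 to 2.4). Sema6c was at 3.51, 1.47, 9.96 and 10.1 FPKM and 2.4-fold lower with etoposide (interval 1.81 to 3.19). Sema7a, the ligand of Plxnc1, was at 5, 2.49, 18.5 and 20 FPKM and 2.01-fold lower with etoposide (interval 1.58 to 2.57). All 3 intervals overlapped.

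Class 4 spanned the widest range of the semaphorin classes, from level to past 2-fold. Sema4b was at 2.77, 1.38, 9.11 and 9.45 FPKM and 2.01-fold lower with etoposide (interval 1.49 to 2.75). Sema4d, the ligand of Plxnb1, was at 2.16, 1.07, 5.49 and 5.98 FPKM and 2.02-fold lower with etoposide (interval 1.47 to 2.79). Sema4f was at 4.09, 2.4, 10.6 and 12.7 FPKM and 1.7-fold lower with etoposide (interval 1.36 to 2.15). The remaining class 4 members were near level in the etoposide pair and lay above 0 after median scaling (0.09 for Sema4c and 0.40 for Sema4g). Sema4c was at 2.78, 2.2, 7.73 and 6.98 FPKM and 1.26-fold lower with etoposide (interval 0.971 to 1.63). Sema4g (chromosome 19, 45063834 to 45077885) was at 5.33, 5.32, 16.7 and 14.9 FPKM, with a ratio of 1.00 (interval 0.852 to 1.17). Of class 5, Sema5b was at 1.08, 0.419, 7.61 and 7.42 FPKM and 2.57-fold lower with etoposide (interval 1.59 to 4.33), and Sema5a, under 1 FPKM in that pair, was at 0.852, 0.358, 3.63 and 3.77 FPKM.

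Several loci share sequence with other genes, and the sources used here do not say how counting treated strand. Exons of Plxna1, Plxna4, Plxnb1 and Unc5a overlap a gene on the other strand, and exons of Nrp1 and Ntn1 overlap one on the same strand. Their values are uncertain to that extent. Without members whose listed locus overlaps another listed gene, 6 of 11 receptors were at least 2-fold lower with etoposide, beside 7.36% of all genes. That setting kept Plxna1, Plxnb1 and Ntn1, whose listed loci overlap no other, so it does not leave out all the genes named here.

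**Figure D2:**
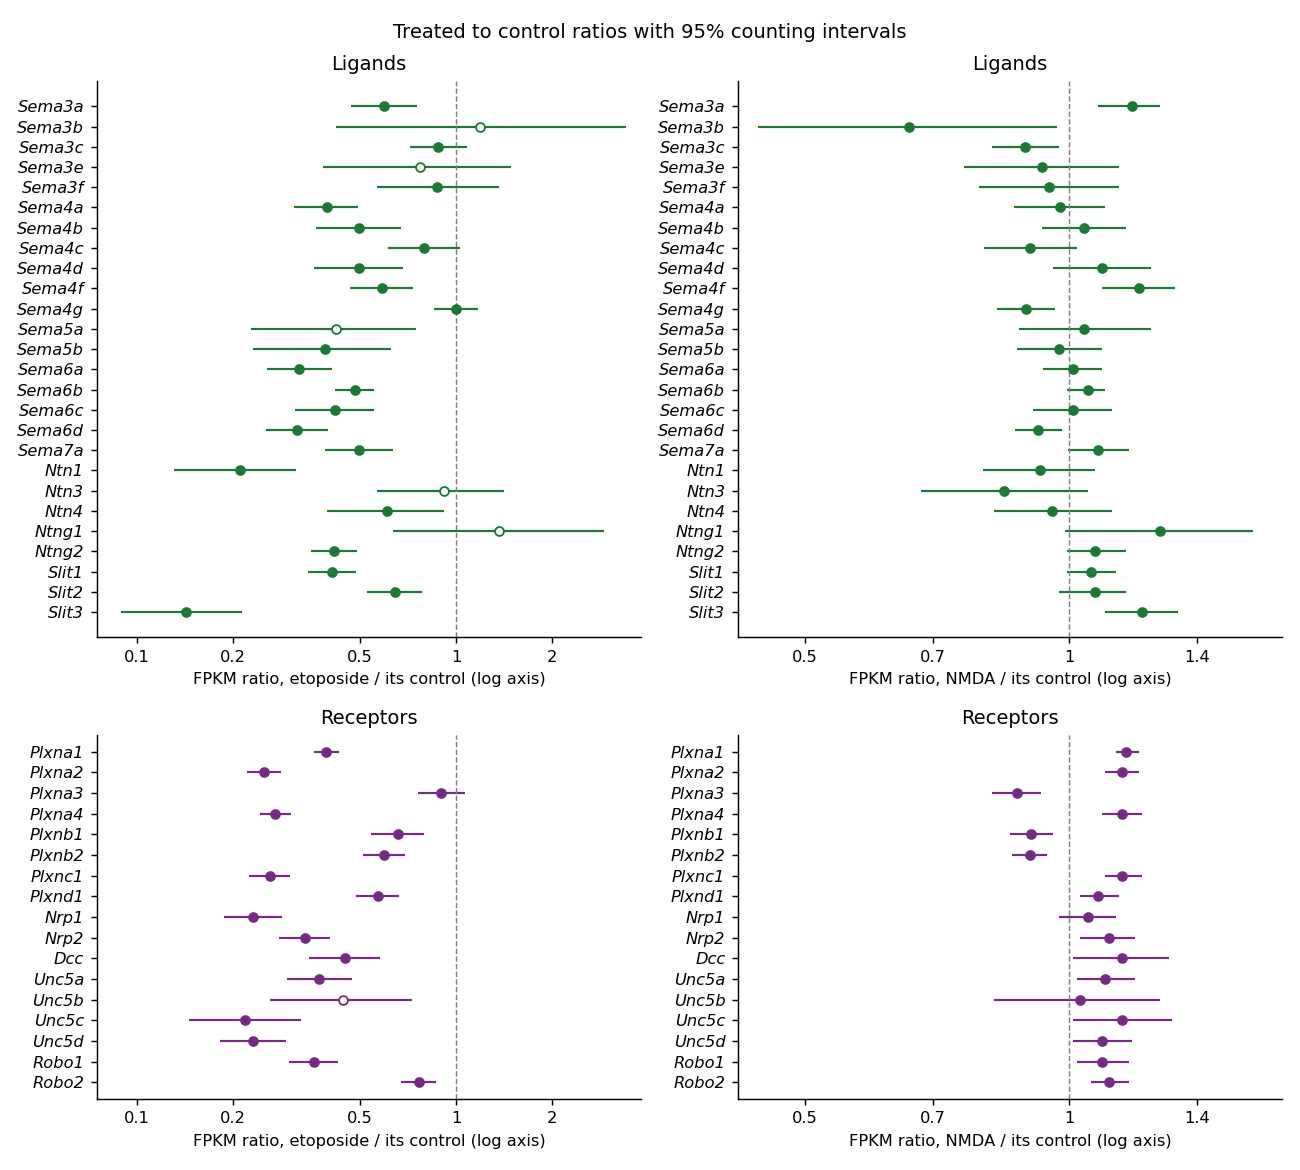
FPKM ratio of treated to control library (log axes) for the 26 ligands and 17 receptors at 1 FPKM or more in any library, ligands in green and receptors in purple, with bars for the 95% counting interval and open points for members under 1 FPKM in both libraries of the pair. Filled etoposide points run from 0.143 for Slit3 to near 1 for Sema4g, and NMDA ratios lie between 0.658 and 1.27.

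Against the etoposide control, long receptors were the lowest with etoposide, and long genes at large were lower too. Of receptors spanning over 100 kb, 8 of 10 were at least 2-fold lower (median -1.32), and of those up to 100 kb 2 of 6 (median -0.63). Over all genes the share was 24.4% of the 1720 over 100 kb (median -0.71) and 4.1% of the 8961 up to 100 kb (median -0.26). For ligands the order depended on the scale: the median was -0.551 for 9 over 100 kb and -0.724 for 12 up to 100 kb on the FPKM + 1 scale, but -0.564 and -0.489 after median scaling, and 2.44-fold and 2.01-fold lower in plain FPKM. At least 2-fold lower on the FPKM + 1 scale were 4 of the 9 and 3 of the 12. The untreated controls differed by span as well. In the NMDA control against the etoposide control after median scaling, receptors over 100 kb had a median of -0.559. Of these, 9 of 10 were below 0, as were 1256 of 2039 genes of that span, whose median was -0.133. Receptors up to 100 kb had a median of 0.439, beside 0.0489 for all genes up to 100 kb. Spearman's rho with span in that comparison, before scaling, was -0.64 over 17 receptors and -0.225 over all genes. That comparison shares the etoposide control with the etoposide comparison. With the etoposide library set against the NMDA control after scaling, the receptor order by span was not kept. Plxnb2 (-1.11), Plxnb1 (-0.98) and Unc5a (-0.87), up to 100 kb, were then among the lowest, with Plxnc1 (-1.14) and Unc5d (-1.02) over it. Plxna4 (-0.16), Robo2 (-0.09) and Dcc (0.23), over 100 kb, were among the highest, as was Unc5b (-0.08) up to it. In the etoposide pair, Robo2 at 519 kb, Slit2 at 323 kb and Sema3c at 156 kb were long with small differences. Of 18 members up to 100 kb, 5 were at least 2-fold lower, among them Plxna1 at 46.3 kb (-1.21) and Sema4a at 25.2 kb (-1.09). Sema6c at 8.94 kb lay at the median of the members (-0.872). Sema6d is also among the 5, and its listed locus leaves out the upstream part of its annotated gene. Spearman's rho between log2 fold and span was -0.42 over 37 members and -0.44 over all genes. With the level in the control it was -0.575 over members and -0.264 over all genes, and the control value also enters the fold. These are descriptions across genes of 1 pair of libraries, and genes are not independent replicates.

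**Figure D3:**
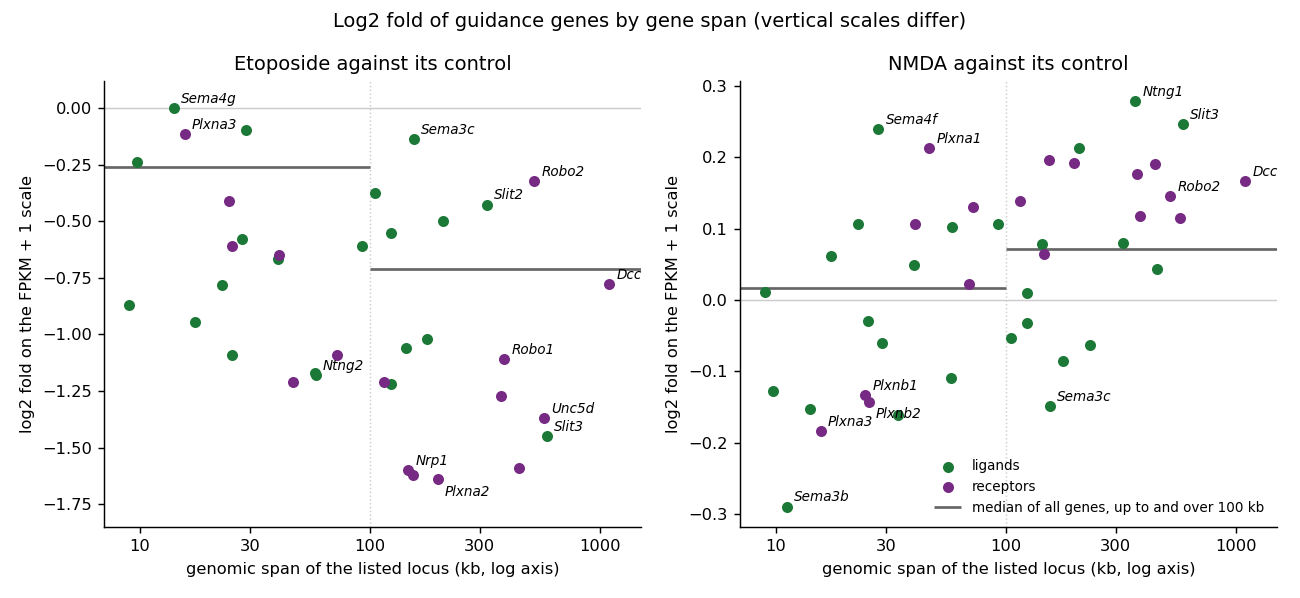
Log2 fold on the FPKM + 1 scale against the genomic span of each listed locus (kb, log axis), for 37 members with etoposide and 43 with NMDA, with ligands in green, receptors in purple and grey bars for the medians of all genes up to and over 100 kb. With etoposide, 9 of the 10 receptors over 100 kb lie below the median of all genes of that span (-0.71), and Robo2 lies above it.

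How far single members differed depended on the control. After median scaling, 41 members could be set against both controls, and 30 of them (73.2%) were below 0 against both, beside 32.3% of 12177 genes. These comparisons share the etoposide library. Slit3, Sema6a, Sema6d, Plxnc1 and Unc5d were at least 2-fold lower against both, 5 of 41, beside 1.22% of all genes. Slit3 had log2 folds of -1.67 and -1.64 against its own and the other control, and Unc5a, Nrp1 and Plxna2 had -0.87 and -0.87, -1.47 and -0.76, and -1.43 and -0.68. Plxna4 was far less low against the other control (-1.34 and -0.16), and so was Ntng2 (-0.81 and -0.10). Sema4a (-0.83 and 0.25), Dcc (-0.59 and 0.23) and Slit2 (-0.17 and 0.07) turned from below 0 to above it, and Ntng1 (0.56 and -0.06), Plxna3 (0.25 and -0.37) and Robo2 (0.04 and -0.09) turned the other way. Plxnb1 (-0.14 and -0.98), Plxnb2 (-0.29 and -1.11) and Sema5b (-0.56 and -1.48) were lower against the other control than against their own. The controls differed for these genes: the scaled NMDA control lay at -1.17 from the etoposide control for Plxna4, -1.08 for Sema4a, 0.82 for Plxnb2 and 0.92 for Sema5b. No label says whether the pairs were cultured or sequenced together.

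**Figure D4:**
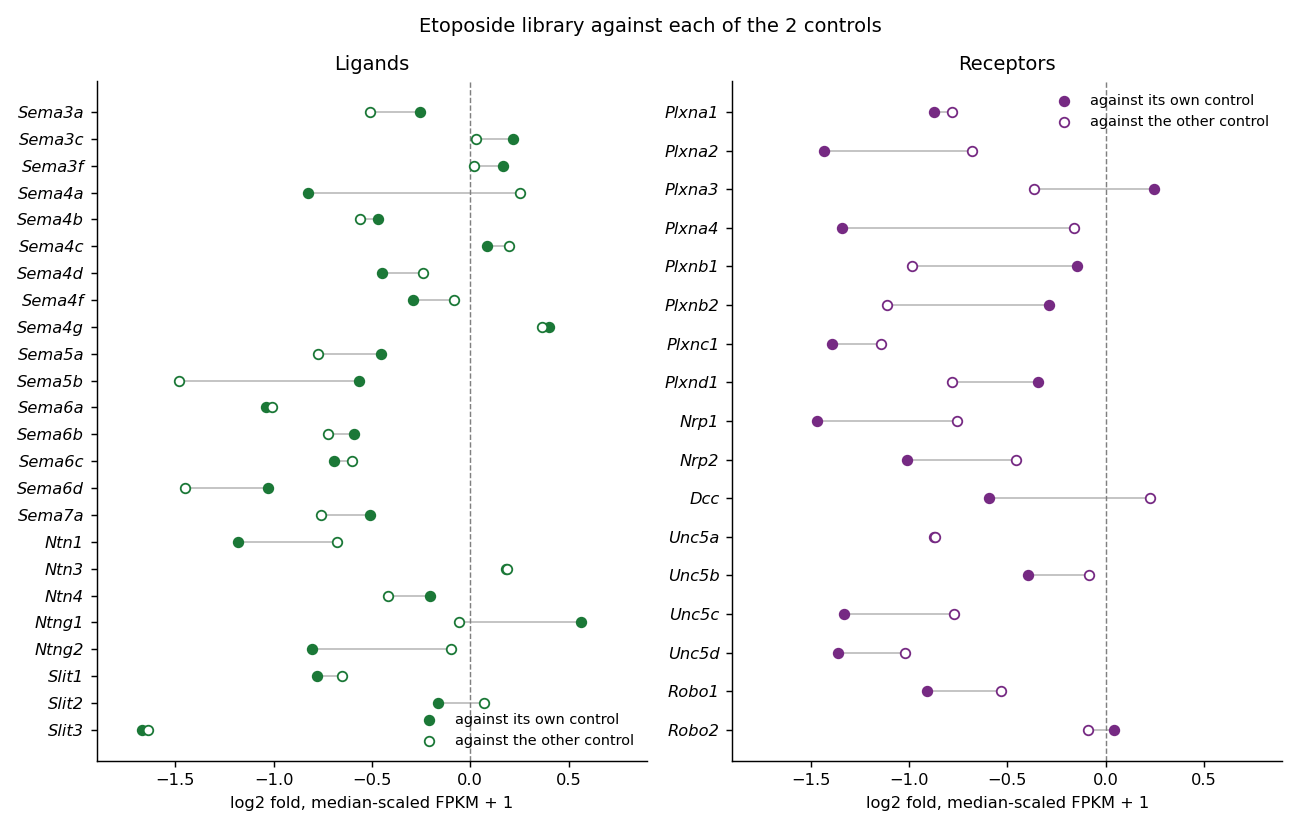
Log2 fold of the etoposide library on median-scaled FPKM + 1, against its own control (filled) and against the NMDA control (open), for the 24 ligands (green) and 17 receptors (purple) that could be set against both. Slit3, Sema6a, Sema6d, Plxnc1 and Unc5d are at or below -1 against both, while Sema4a and Dcc lie on opposite sides of 0.

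Most marker sums were lower in the etoposide pair too, where the median gene had a ratio of 0.747. The summed markers had ratios of etoposide to control of 0.631 for neurons, 0.527 for astrocytes, 0.356 for progenitors, 0.261 for the oligodendrocyte lineage (20.6 and 5.39 FPKM) and 0.256 for mural cells and fibroblasts (11.8 and 3.02 FPKM). The ratio was 0.498 for guidance ligands and 0.391 for receptors. Olig1 (16.6 to 3.36 FPKM) made up most of the oligodendrocyte sum, Sox10 was near 0 in both libraries and Mog was higher with etoposide (0.369 to 0.696 FPKM). Progenitor markers summed to 89.3 and 31.8 FPKM, mostly from Vim (72.5 to 24.4 FPKM), while Ccna2 was near level (1.08 to 1.04 FPKM). All 4 progenitor and all 7 astrocyte markers compared were below 0, beside 76.7% of all genes, though Gfap was near level (9.59 to 8.64 FPKM). Acta2 (4.61 to 0.0944 FPKM) and Tagln (4.82 to 0.76 FPKM) made up most of the mural and fibroblast sum in the control. Dcn, in the same list, was higher with etoposide (1.42 to 1.87 FPKM). Microglia markers (0.806 and 1.92 FPKM) and endothelial markers (0.636 and 0.366 FPKM, with Cdh5 and Cldn5 at 0 in both) were near 0. After median scaling, the etoposide control and the NMDA control held 204 and 613 FPKM of astrocyte markers and 40.9 and 127 of oligodendrocyte markers, against 205 and 190 of guidance ligands and 203 and 181 of receptors. In bulk RNA, fewer cells of a type and less RNA per cell cannot be told apart. The part of cell makeup in the guidance gene differences was not tested.

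NMDA gave small differences. Of 43 members compared, 0 were 2-fold lower and 0 were 2-fold higher, beside 0.729% and 0.438% of 13028 genes, and the authors' deposited table listed 0 members, where it held 0.292% of these genes as lower and 0.192% as higher. Receptors were mostly above their control: 14 of 17 were above 0, with a median of 0.13, beside 57.2% of all genes and a median of 0.02. Ligands were evenly placed, with 14 of 26 above 0 and a median of 0.01. The counting interval of the FPKM ratio lay above 1 for 12 of 17 receptors and 3 of 26 ligands, beside 20.5% of all genes. It lay below 1 for 3 receptors and 4 ligands, beside 10.6% of all genes. After median scaling within the pair 4 of 17 receptors were below 0, beside 51.8% of all genes, and their median was 0.09. Against the other control it was -0.26, so this direction turned with the control.

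The receptors above their control with NMDA included the plexins that were lowest with etoposide. The FPKM ratio of NMDA to control was 1.16 (1.13 to 1.2) for Plxna1, 1.15 (1.1 to 1.2) for Plxna2, 1.15 (1.09 to 1.21) for Plxna4 and 1.15 (1.1 to 1.21) for Plxnc1. Nrp2 had a ratio of 1.11 (1.03 to 1.19) and Nrp1 one of 1.05 (0.973 to 1.13). Plxnd1, Dcc, Unc5a, Unc5c, Unc5d, Robo1 and Robo2 had ratios from 1.08 to 1.15, each with an interval above 1. The receptors below their control were Plxna3 at 0.873 (0.818 to 0.93), Plxnb1 at 0.906 (0.856 to 0.96) and Plxnb2 at 0.903 (0.862 to 0.945). All 10 receptors over 100 kb were above 0 with NMDA, as were 1486 of 2132 genes of that span. The medians were 0.155 for these receptors and 0.07 for all genes of that span.

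Among ligands, 3 had an interval above 1 with NMDA. They were Slit3 at 1.21 (1.1 to 1.33), Sema4f at 1.2 (1.09 to 1.32) and Sema3a at 1.18 (1.08 to 1.27). Those with an interval below 1 were Sema3c at 0.892 (0.818 to 0.975), Sema4g at 0.894 (0.828 to 0.965), Sema6d at 0.923 (0.868 to 0.982) and Sema3b at 0.658 (0.443 to 0.968), the last from about 72 and 45 fragments. The netrin sum had the lowest ratio of the ligand families (0.925) and the Slit sum the highest (1.1). With NMDA, neuron markers had a ratio of 1.07, astrocyte markers 0.965, oligodendrocyte markers 0.975, progenitor markers 0.874, mural and fibroblast markers 0.856, microglia markers 0.728 and endothelial markers 0.91, and their part in these small differences was not tested.

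The etoposide and NMDA pairs share no library, and the members tended to opposite orders in them. Each of the 10 receptors at least 2-fold lower with etoposide was above 0 with NMDA, as were 3 of the 6 other receptors. Genes at large had the same order: 630 of 779 that were at least 2-fold lower with etoposide were above 0 with NMDA, and 5827 of 9794 others. Of the 7 ligands at least 2-fold lower with etoposide 4 were above 0 with NMDA, as were 8 of the 14 others. Spearman's rho between the log2 folds was -0.55 over 37 members and -0.27 over 10573 genes. The points share span and transcript length.

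Other guidance receptors and partners were lower with etoposide too. Among 15 with a value, 14 were compared, all 14 were below 0 and 6 were at least 2-fold lower, with a median of -0.864, beside 76.7% and 7.36% of all genes. All 14 were at 1 FPKM or more in the control but 12 with etoposide, so the others were below 0 by the filter. After median scaling 2 of 14 were at least 2-fold lower, beside 2.64%. Met, a receptor kinase that associates with plexin B1, went from 13.7 to 3.69 FPKM, and Neo1, a Dcc relative that binds netrins, from 22.4 to 7.75 FPKM. Lrrc4c, the partner of Ntng1, went from 14.7 to 6.17 FPKM, and its relative Lrrc4b from 46.9 to 21.4 FPKM. The neuropilin co-receptors L1cam and Chl1 went from 29.1 to 12.7 FPKM and from 38.5 to 18.1 FPKM. The authors' deposited table listed 5 of the 15, all as lower, beside 6.28% of the genes compared. Of these, Met, Neo1 and Lrrc4c are among the 6 named.

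Genes that carry guidance signals inside the growth cone were lower as well. Of 35, 32 were compared with etoposide, 31 were below 0 and 10 (31.2%) were at least 2-fold lower, with a median of -0.87, beside 76.7% and 7.36% of all genes. After median scaling 2 of 33 were at least 2-fold lower, beside 2.64% of all genes. Below 0 were 29 of the 33, beside 47.3%, and the scaled median was -0.56, beside 0.03. Tiam1, an activator of Rac, went from 6.65 to 1.5 FPKM, and Trio, an exchange factor that acts below Dcc, from 9.14 to 3.35 FPKM. Mical2, of the family of oxidases that act on actin, went from 7.91 to 2.41 FPKM, and Srgap2, a GTPase activator that binds Robo1, from 9.85 to 3.8 FPKM. The kinase Gsk3b went from 23.2 to 9.59 FPKM, the kinase Fyn from 28.9 to 12.7 FPKM and Cdk5r1, the activator of Cdk5, from 36.5 to 15.6 FPKM. The adaptor Nck2 went from 9.19 to 3.64 FPKM. Its relative Nck1, named after its values were seen, was the 1 gene of the list above 0, going from 2.02 to 2.56 FPKM. The authors' deposited table listed 7 of the 35, all as lower, beside 6.28% of the genes compared. With NMDA, 0 genes of either list were 2-fold lower or higher, and the medians were 0.09 and 0.06.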

How the data were processed

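RNA was measured in 4 libraries of cultured cortical neurons, 1 per group, and the 12 chromatin samples of the series were not analysed here. The deposited tables give FPKM per gene from paired-end reads of total RNA. For RNA and chromatin together, the build mm9 and the tools BWA, HOMER, Picard, Bowtie, TopHat, Cuffdiff and Cufflinks (2.0.0) appear in the submitters' processing notes, which assign no step to any of them. How the authors chose their lists of differing genes is not stated in the sources used here.

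From the FPKM, log2((treated + 1)/(control + 1)) was computed for genes at 1 FPKM or more in either library of a pair. The FPKM worth of 1 fragment was read from low values of single-exon genes (kernel bandwidth of 0.06 on the natural log scale), and with transcript lengths from an annotation of the same build it gave approximate fragment numbers and exact 95% (Clopper-Pearson) intervals of ratios. Median scaling divided each library by its median over genes at 1 FPKM or more in all 4. The log2 folds and the ratio intervals were tested on simulated data. The reading of the FPKM worth of 1 fragment and the median scaling were not. Every member at 1 FPKM or more in any library is named, with up to 8 genes past 2-fold from each of 2 lists of partner and signalling genes, and 7 lists of cell type markers were summed. Members and lists were chosen with earlier results of these data known. Alternatives were pseudocounts of 0.1 and 5, filters of 5 FPKM and none, median scaling, the other control, secreted ligands only, and leaving out overlapping loci. Python 3.11.15, pandas 2.3.3, NumPy 2.4.6, SciPy 1.17.1 and matplotlib 3.10.9 were used.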

Additional observations from a re-analysis of the deposited data

How the results depend on the processing

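No paired analysis was possible because each group has 1 library, and no library could be left out. The difference between the receptor and ligand medians with etoposide (-0.495) kept its direction under the 8 alternatives run but shrank to -0.153 at a filter of 5 FPKM, and among members up to 100 kb the medians were -0.63 for receptors and -0.724 for ligands, the opposite order. With a pseudocount of 5 FPKM the etoposide medians were -0.296 for ligands and -0.571 for receptors, and 0 ligands and 0 receptors were 2-fold lower, since a larger pseudocount shrinks the folds of low genes. The ligands at least 2-fold lower, 7 as reported, were 4 of 7 at a filter of 5 FPKM, 4 with median scaling, 4 against the other control and 3 of 8 among secreted ligands. Against the other control with median scaling, the etoposide ligand median was -0.416, the receptors at least 2-fold lower fell from 10 to 3 of 17 (17.6%, beside 10.0% of all genes), and the log2 fold of Sema4a reversed to 0.251. Without overlapping loci 6 of 11 receptors were 2-fold lower, from fewer genes. With NMDA, the other control gave 1 of 24 ligands and 1 of 17 receptors at least 2-fold lower, beside 3.04% of all genes. The receptor median was -0.26 in place of 0.13 and the receptor minus ligand median -0.261 in place of 0.119, both reversed. The cause was not tested. Signs of single members turned for 6 of 37 with etoposide and 3 of 42 with NMDA under median scaling, and for 7 of 37 and 25 of 41 against the other control. Depth limits members with few fragments, such as Slit3 and Ntn1 in the etoposide library.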
